A study of Mus musculus with 8 samples.

Results

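Annexins and the S100 proteins that bind them were followed in progenitors of dendritic cells sorted from the bone marrow of mice. The set held 6 annexin genes (Anxa1, Anxa2, Anxa3, Anxa4, Anxa5 and Anxa6) and 4 S100 genes (S100a4, S100a6, S100a10 and S100a11), with the calprotectin genes S100a8 and S100a9 left out. All 10 were found among the 19938 genes named on the arrays. Genes were chosen by family and known binding, with earlier results of these arrays in view. Each was read at a probe set annotated with its symbol alone. Where a gene had several, as Anxa6 and S100a11 did, the probe set was selected on the highest mean over the 8 arrays, and that mean is not a result.

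Affymetrix mouse gene arrays measured RNA of 4 sorted populations with 2 arrays each, Id2-GFP+ pre-CD8, Id2-GFP- pre-CD8, Id2-GFP+ CDP and Id2-GFP- CDP. CDP is the common dendritic cell progenitor, pre-CD8 is a progenitor that the labels do not define further, and GFP reports the Id2 gene. Sample sources place every population in Id2-IRES-GFP reporter mice, but the genotype field says heterozygous Id2-IRES-GFP for 2 arrays only, both Id2-GFP- CDP, and heterozygous Zbtb46-GFP on the remaining 6. Any difference taken against Id2-GFP- CDP therefore also sets arrays with different genotype entries against each other. The labels give no age, and do not say whether the 2 arrays of a population had animals of their own. The p-values thus reflect the spread between these arrays alone, which may be technical.

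Annexins are cytosolic proteins that bind acidic phospholipids of membranes when calcium rises, and they take part in membrane repair, vesicle traffic and the handling of phosphatidylserine. S100 proteins are small dimers with calcium-binding EF hands, and several of them dock onto the amino-terminal tail of an annexin. The best known pairs are S100a10 with Anxa2, which form a tetramer that binds plasminogen and Ahnak at the plasma membrane, and S100a11 with Anxa1. In myeloid cells Anxa1 is known as a protein induced by glucocorticoids that limits neutrophil recruitment through formyl peptide receptors.

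RNA of Id2 itself lay at log2 9.26 to 10.99 on the 4 Id2-GFP+ arrays, against 5.14 to 7.18 on the 4 Id2-GFP- arrays. Of 8 markers of early and dendritic progenitors 4 fell in Id2-GFP+ against Id2-GFP- pre-CD8 (Flt3, Csf1r, Cd34 and Cd93, log2 differences of -2.65 to -1.09) and 2 rose (Zbtb46 by 2.05 and Cst3 by 1.38), while Kit and Spib did not pass. None of the 8 passed between the CDP classes, though 4 had an unadjusted p under 0.05 in limma. Their summed intensity, in which these moves offset each other, was 19471 to 21675 in Id2-GFP+ pre-CD8, 18783 to 22332 in Id2-GFP- pre-CD8, 18975 to 22118 in Id2-GFP+ CDP and 19631 to 22167 in Id2-GFP- CDP. Xcr1 and Itgae, both markers of the cDC1 class of dendritic cells, stayed below the median of every array. By mean intensity 4 arrays were brighter (461 to 478) and 4 dimmer (402 to 414), with 1 array of every population among each 4. Fits with this intensity set as a block, and values within the sets, are given where they change a call.

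RefSeq start sites of 7 of the 10 genes were available, and the 250 bases before the start are shown for the 6 of them that rose in Id2-GFP+ pre-CD8, because these transcripts moved together (build GRCm38.p6, 5′ to 3′ on the strand of the gene). Capitals mark matches on either strand to an AP-1 site (TGANTCA), a C/EBP site (TTGCNNAA) or a TATA box (TATAAA). The windows are chr19:20390672-20390921 on the minus strand for Anxa1, chr9:69453433-69453682 on the plus strand for Anxa2 and chr3:36475888-36476137 on the minus strand for Anxa5. Those of the S100 genes are all on the plus strand, chr3:90603520-90603769 for S100a4, chr3:90612644-90612893 for S100a6 and chr3:93520246-93520495 for S100a11.
Anxa1: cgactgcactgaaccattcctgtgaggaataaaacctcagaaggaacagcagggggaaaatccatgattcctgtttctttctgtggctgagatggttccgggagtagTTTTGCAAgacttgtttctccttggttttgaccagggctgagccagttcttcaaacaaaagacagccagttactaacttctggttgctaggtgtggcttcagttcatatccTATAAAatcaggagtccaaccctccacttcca
Anxa2: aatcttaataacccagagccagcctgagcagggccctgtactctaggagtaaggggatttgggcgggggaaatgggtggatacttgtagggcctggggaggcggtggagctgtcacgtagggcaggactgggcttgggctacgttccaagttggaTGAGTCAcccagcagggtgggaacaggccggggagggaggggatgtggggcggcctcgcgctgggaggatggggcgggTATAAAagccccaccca
Anxa5: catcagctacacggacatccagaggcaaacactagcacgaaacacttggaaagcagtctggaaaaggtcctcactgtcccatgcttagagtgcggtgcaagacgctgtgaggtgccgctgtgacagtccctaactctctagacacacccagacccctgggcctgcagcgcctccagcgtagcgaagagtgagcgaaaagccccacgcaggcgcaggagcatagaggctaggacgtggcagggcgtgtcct
S100a4: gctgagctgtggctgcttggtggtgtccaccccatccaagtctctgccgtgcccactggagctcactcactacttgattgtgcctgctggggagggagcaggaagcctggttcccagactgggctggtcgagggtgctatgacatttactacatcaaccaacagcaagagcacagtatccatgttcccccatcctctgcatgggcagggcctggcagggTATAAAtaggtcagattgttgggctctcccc
S100a6: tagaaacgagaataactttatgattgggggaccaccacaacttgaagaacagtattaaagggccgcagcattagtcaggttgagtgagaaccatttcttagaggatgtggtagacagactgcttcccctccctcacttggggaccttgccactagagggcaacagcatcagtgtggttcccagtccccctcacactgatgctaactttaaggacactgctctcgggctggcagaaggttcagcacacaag
S100a11: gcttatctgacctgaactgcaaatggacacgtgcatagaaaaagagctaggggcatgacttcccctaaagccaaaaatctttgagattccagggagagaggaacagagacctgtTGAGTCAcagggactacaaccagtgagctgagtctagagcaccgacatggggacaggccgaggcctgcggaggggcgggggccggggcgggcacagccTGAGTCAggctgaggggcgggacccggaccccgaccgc

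A TATA box began 32 bases before the start of Anxa1, 17 before that of Anxa2 and 31 before that of S100a4. An AP-1 match lay 95 bases before the start of Anxa2, and S100a11 held 2, the farther at 136 bases. Anxa1 held a C/EBP match at 143 bases, and the windows of Anxa5 and S100a6 held none of the 3 motifs. A window of Anxa4, which did not pass and is not shown, held a C/EBP match at 208 bases. Over all 32851 such windows 6.75% held an AP-1 match, 9.56% a C/EBP match and 12.4% a TATA box. Among the 8 start sites of the 7 genes, 2 held an AP-1 match, 2 a C/EBP match and 3 a TATA box. Of the 8 start sites of the 7 genes (Anxa4 has several), 1, of Anxa4, held the E protein site CAGNTG, found in 44.8% of all windows. None held the PU.1 site GAGGAAG (10.6% of all windows), 3 of 8 held CCACCC, a site of Krüppel-like factors (28.1%), and 2 held the GC box GGGCGG (32.7%). No marked match overlapped another of these motifs. A match is a string of letters and says nothing of binding.

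The first comparison asked how the genes differed between reporter classes of pre-CD8 cells. In Id2-GFP+ pre-CD8, 4 of 6 annexins (Anxa1, Anxa2, Anxa5 and Anxa6) and all 4 S100 genes were higher than in Id2-GFP- pre-CD8, by 2.26-fold for S100a10 up to 9.72-fold for S100a6. None fell. Anxa3 and Anxa4 did not pass. These 8 of 10 calls stand beside 3.57% of all 19938 genes called higher, 2.7% called lower and 6.26% called in either direction. In the same 8 genes both Id2-GFP+ arrays lay above both Id2-GFP- arrays, as they did in 19% of all genes. The median log2 difference of the 10 was 2.49, against -0.008 over all genes. The genes were chosen with earlier results of these arrays known, so the count describes them and is not independent evidence. In sorted bulk cells, fewer cells of a type and less RNA per cell cannot be told apart.

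Anxa2, which tethers membranes to actin and carries S100a10, had log2 intensities of 10.57 and 11.005 in Id2-GFP+ pre-CD8 against 7.78 and 7.48 in Id2-GFP- pre-CD8. The 2 populations lay far apart, with a difference of 3.15 ± 0.22 (log2 ± SE of limma, 2 arrays each) or 8.90-fold, and an adjusted p of 0.00045. Anxa5, the phosphatidylserine binder used to stain dying cells, had 10.81 and 11.20 against 8.44 and 8.36, a difference of 2.61 ± 0.21 with an adjusted p of 0.00063. Anxa6, a large annexin with a doubled core, had 11.32 and 11.88 against 9.31 and 9.13, a difference of 2.38 ± 0.24 with an adjusted p of 0.0014. Its second probe set gave 0.81 and did not pass (adjusted p = 0.137). Anxa1 had 10.98 and 11.61 in Id2-GFP+ pre-CD8 against 8.88 and 8.29 in Id2-GFP- pre-CD8, a difference of 2.71 ± 0.32 with an adjusted p of 0.0025. The arrays of the 2 populations lay apart in all 4 genes.

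Among the S100 genes S100a6 (calcyclin), which binds several annexins, differed most. Its log2 intensities were 11.41 and 11.59 in Id2-GFP+ pre-CD8 against 8.11 and 8.33 in Id2-GFP- pre-CD8, a difference of 3.28 ± 0.32 with an adjusted p of 0.0013. S100a4, a regulator of non-muscle myosin and cell movement, had 10.43 and 10.47 against 7.38 and 7.83, a difference of 2.84 ± 0.41 with an adjusted p of 0.0054. The estimates for S100a11 and S100a10, the partners of Anxa1 and Anxa2, were smaller, and were not tested against those of S100a4 and S100a6. S100a11 had 10.81 and 11.31 against 9.79 and 9.70, a difference of 1.31 ± 0.22 with an adjusted p of 0.0097, and its second probe set gave 1.29. S100a10 had 12.44 and 12.48 in Id2-GFP+ pre-CD8 against 11.17 and 11.40 in Id2-GFP- pre-CD8, a difference of 1.17 ± 0.20 with an adjusted p of 0.011. S100a10 no longer passed when Id2-GFP- pre-CD8 replicate 1 was left out, nor without one or other Id2-GFP+ pre-CD8 array (largest adjusted p = 0.080). S100a11 no longer passed without replicate 2 of either pre-CD8 population (largest adjusted p = 0.0833).

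**Figure D1:**
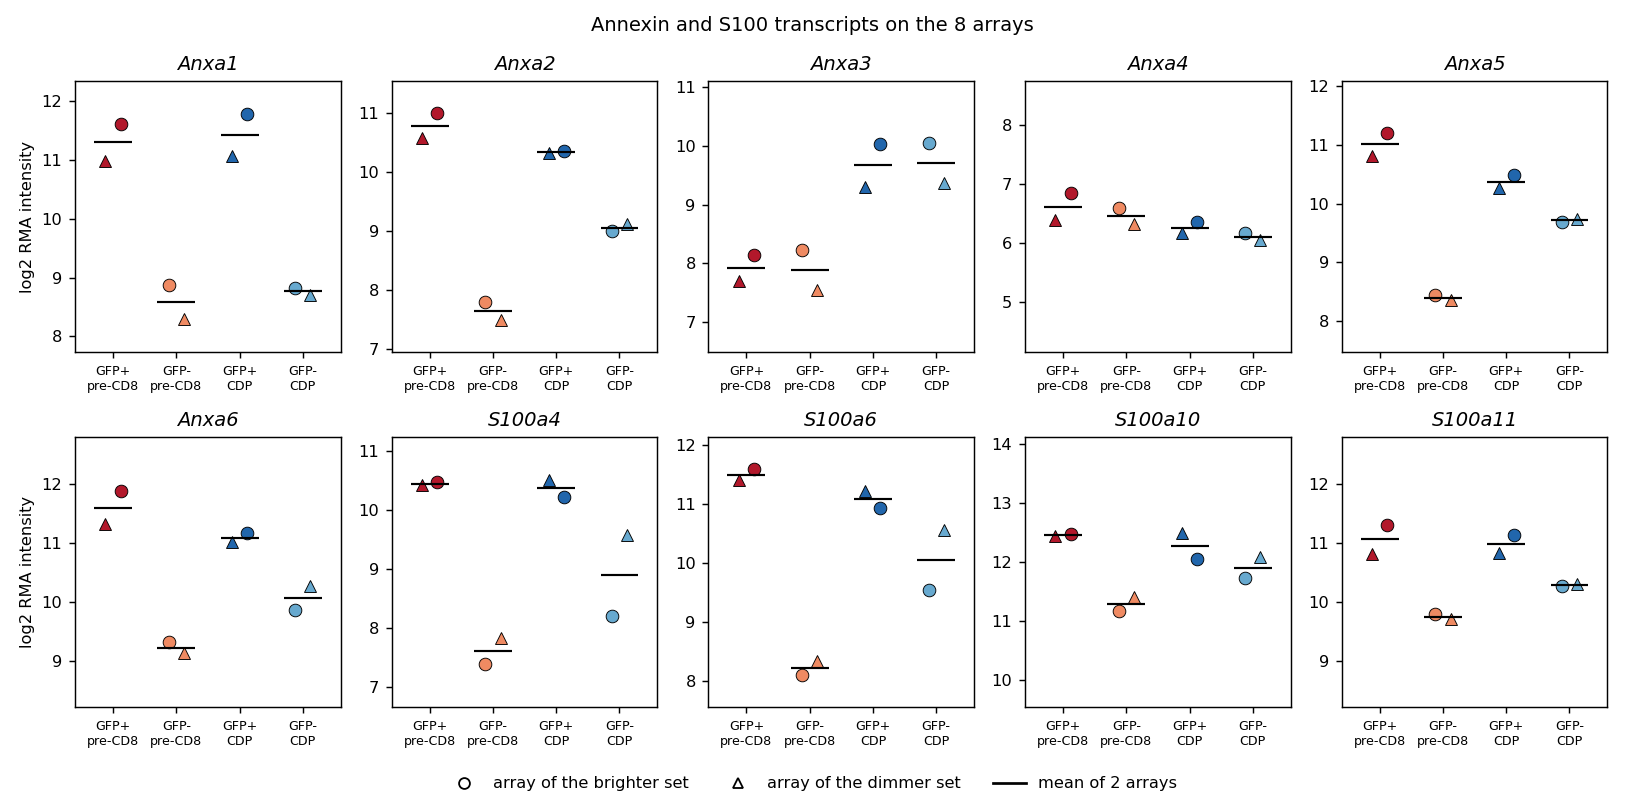
Log2 RMA intensity (vertical axis, a span of equal length in each panel) of the 10 genes on the 8 arrays, in 4 populations along the horizontal axis; circles are arrays of the brighter set, triangles those of the dimmer set and bars the mean of 2 arrays. Id2-GFP- pre-CD8 has the lowest mean in every gene but Anxa4, Anxa3 is split by stage, and Anxa4 stays between 6.06 and 6.85.

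Markers of other cells differed between the same populations, some upward and some downward. Of 15 neutrophil genes 10 rose and 1 fell in Id2-GFP+ pre-CD8, and their summed intensity was 41682 to 48025 against 14026 to 18769 in Id2-GFP- pre-CD8. Of 10 monocyte and macrophage genes 4 rose and 1 fell, with sums of 10013 to 10572 against 2971 to 3196. The 1 that fell was Csf1r, already counted among the progenitor markers above. No neutrophil, monocyte or macrophage marker stayed below the median of every array. Of 10 cDC1 markers 7 rose, with sums of 17570 to 24002 against 5813 to 6912. Of 8 measured plasmacytoid dendritic cell genes 3 fell, among them Tlr7 (log2 difference -3.38) and Ccr9 (-1.94). The 1 that rose was Tlr9, at log2 9.88 and 10.37 against 7.79 and 8.16. Sums of the 8 were 5647 to 7448 against 6979 to 8425. Of 7 B lineage genes 2 fell, with sums of 645 to 649 against 979 to 1152, and Cd79a and Ms4a1 stayed below every array's median. Of 9 T, NK and ILC genes 2 rose, with overlapping sums of 927 to 1506 against 1077 to 1447, and Cd3g, Klrb1c and Eomes stayed below every array's median. Of 6 erythroid and megakaryocyte genes none passed by limma and 1 had an unadjusted p under 0.05. Their sums were 674 to 754 against 1002 to 1003, and Klf1, Epor and Pf4 stayed below every array's median. Tfrc, the brightest of the 6, had means of 8.80 against 9.49. The part of any of these cells in the annexin and S100 differences was not tested.

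The same question was asked of CDP. Anxa1 alone passed, higher in Id2-GFP+ CDP by 2.65 ± 0.32 (6.28-fold) with an adjusted p of 0.013, where 0.597% of all genes were called higher and 0% lower. Its log2 intensities were 11.06 and 11.78 in Id2-GFP+ CDP against 8.82 and 8.71 in Id2-GFP- CDP. Leaving out Id2-GFP+ CDP replicate 2, or one or other of the Id2-GFP- CDP arrays, ended the call (largest adjusted p = 0.109). The median difference of the 10 genes was 0.86, against -0.0016 over all genes. Of the 10, 7 had an unadjusted p under 0.05, and the share of all genes at that level was not counted. In 8 genes both Id2-GFP+ CDP arrays lay above both Id2-GFP- CDP arrays, as they did in 13% of all genes.

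Anxa2 had 10.32 and 10.35 in Id2-GFP+ CDP against 9.0 and 9.11 in Id2-GFP- CDP, a difference of 1.28 ± 0.22 with an adjusted p of 0.058. Anxa6 had 11.01 and 11.17 against 9.85 and 10.26, a difference of 1.03 ± 0.24 (adjusted p = 0.208). Anxa5 had 10.26 and 10.49 against 9.68 and 9.74, a difference of 0.66 ± 0.21 (adjusted p = 0.495). None of these pairs of arrays overlapped, though none passed. In S100a4 and S100a6 the 2 Id2-GFP- CDP arrays stood apart from each other. S100a4 had 10.51 and 10.23 in Id2-GFP+ CDP against 8.20 and 9.59 in Id2-GFP- CDP, a difference of 1.48 ± 0.41 (adjusted p = 0.360). S100a6 had 11.23 and 10.94 against 9.54 and 10.56, a difference of 1.04 ± 0.32 (adjusted p = 0.487). S100a11 had 10.82 and 11.13 against 10.28 and 10.30, a difference of 0.69 ± 0.22 (adjusted p = 0.504). S100a10 overlapped between classes, with 12.48 and 12.04 in Id2-GFP+ CDP against 11.73 and 12.08 in Id2-GFP- CDP.

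With the intensity set as a block the CDP count became 8 of 10, all higher. Anxa2, Anxa5, Anxa6 and the 4 S100 genes joined Anxa1, with adjusted p-values up to 0.0494 for S100a10. Calls also grew over all 19938 genes, to 735 higher and 831 lower in place of 119 and 0. Computed inside each set, brighter first, Id2-GFP+ minus Id2-GFP- CDP gave 1.35 and 1.21 for Anxa2, 2.03 and 0.93 for S100a4 and 1.40 and 0.67 for S100a6. In CDP the neutrophil genes had a summed intensity of 60534 to 92236 in Id2-GFP+ CDP against 18565 to 31713 in Id2-GFP- CDP, with 9 of 15 rising. The monocyte and macrophage genes had 13978 to 15656 against 12159 to 13619, with 2 of 10 rising, and the cDC1 markers had 12226 to 12942 against 8389 to 9950, with 4 of 10 rising. Of the 9 T, NK and ILC genes 1 rose, with sums of 955 to 1397 against 571 to 607. Their part in the differences was not tested.

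**Figure D2:**
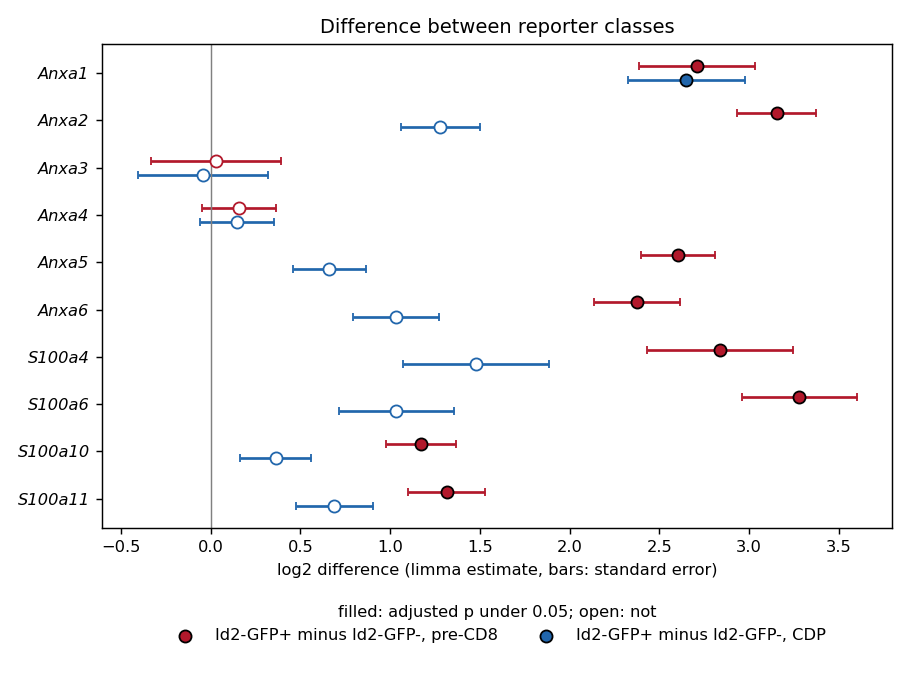
Log2 difference of Id2-GFP+ minus Id2-GFP- (horizontal axis, limma estimate with its standard error) for the 10 genes, in pre-CD8 and in CDP; filled points passed an adjusted p under 0.05. In pre-CD8 8 genes passed, from 1.17 to 3.28, and in CDP only Anxa1 passed, at 2.65.

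Whether the reporter difference itself differed between the stages was tested as an interaction, the pre-CD8 difference minus the CDP difference. No gene of the 10 passed by limma, where 0.0351% of all genes were called higher, 0.11% lower and 0.145% in either direction. An unadjusted p under 0.05 was found in 6, a level whose share over all genes was not counted. The estimate was 2.25 ± 0.45 for S100a6 (adjusted p = 0.135), 1.94 ± 0.29 for Anxa5 (adjusted p = 0.070) and 1.88 ± 0.31 for Anxa2 (adjusted p = 0.088). For Anxa1 it was 0.06 ± 0.46, the pre-CD8 and CDP differences being 2.71 and 2.65. Median centring gave 24 genes higher and 25 lower, and quantile normalization 101 and 101, in place of 7 and 22. Fitted with the intensity set as a block, 7 genes of the set passed, Anxa2, Anxa5, Anxa6 and the 4 S100 genes. Their adjusted p-values ran from 0.00011 for Anxa5 to 0.0498 for S100a11. Over all genes the same fit called 815 higher and 677 lower. Inside the brighter and the dimmer arrays the interaction was 1.95 and 1.94 for Anxa5, 1.87 and 1.88 for Anxa2 and 2.08 and 2.41 for S100a6.

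The stages were then compared within each reporter class. Among Id2-GFP- cells 3 of 10 genes were lower in pre-CD8 than in CDP, where 0.592% of all genes were called lower, 1.03% higher and 1.63% in either direction. Median centring called 224 genes higher and 298 lower, and quantile normalization 416 and 442, in place of 206 and 118. S100a6 fell by 1.83 ± 0.32 (adjusted p = 0.033), Anxa2 by 1.42 ± 0.22 (adjusted p = 0.020) and Anxa5 by 1.31 ± 0.21 (adjusted p = 0.021). The other S100 genes, Anxa6 and Anxa3 lay at -0.54 to -1.82 without passing. The median of the 10 was -1.06, against -0.0046 over all genes. A fit without 1 of the 4 Id2-GFP- arrays, or without 1 of the Id2-GFP+ pre-CD8 arrays, leaves 1 array in that population. Such fits called fewer genes, both among the 10 and over all genes. Over the fits without each array in turn the difference was -2.34 to -1.32 for S100a6, -1.57 to -1.27 for Anxa2 and -1.35 to -1.27 for Anxa5. Fitting the intensity set as a block gave 8 calls among the 10, all lower, with Anxa1 and Anxa4 as the exceptions. Over all genes that fit called 1161 higher and 1325 lower. With the replicate number as a block the count among the 10 was 0, and over all genes 110 were higher and 47 lower. Anxa2 and Anxa5 no longer passed when any 1 of the 4 Id2-GFP- arrays was left out (adjusted p up to 0.187). S100a6 no longer passed without Id2-GFP- CDP replicate 2 or any 1 of the 4 pre-CD8 arrays (adjusted p up to 0.145), nor under quantile normalization (adjusted p = 0.0501). Of the monocyte and macrophage genes 7 of 10 fell in this comparison, with sums of 2971 to 3196 in Id2-GFP- pre-CD8, while Id2-GFP- CDP had 12159 to 13619. Of the plasmacytoid dendritic cell genes 2 of 8 rose, and of the B lineage genes 1 of 7. Falls were called in 1 of 15 neutrophil, 1 of 10 cDC1 and 2 of 8 early and dendritic progenitor genes. Csf1r is counted in both the progenitor falls and the monocyte and macrophage falls. The part of any of these cells was not tested.

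Anxa3, an annexin of neutrophils and their precursors, lay apart between stages and overlapped between reporter classes. It had log2 intensities of 7.71 and 8.14 in Id2-GFP+ pre-CD8 and 8.23 and 7.55 in Id2-GFP- pre-CD8, against 9.30 and 10.03 in Id2-GFP+ CDP and 10.05 and 9.37 in Id2-GFP- CDP. All 4 pre-CD8 arrays lay below all 4 CDP arrays, and the share of all genes that did so was not counted. The stage difference was -1.82 ± 0.36 among Id2-GFP- cells (adjusted p = 0.056) and -1.74 ± 0.36 among Id2-GFP+ cells (adjusted p = 0.434), so neither passed. Both passed once the intensity set entered as a block, with adjusted p-values of 5.0e-06 and 7.5e-05. The difference between reporter classes was 0.03 ± 0.36 in pre-CD8 and -0.04 ± 0.36 in CDP.

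Among Id2-GFP+ cells no gene of the 10 differed by stage at an adjusted p under 0.05, where limma called 0% of all genes. Of the 10, 2 (Anxa3 and Anxa5) had an unadjusted p under 0.05, and the share of all genes at that level was not counted. Anxa5 was at 0.63 ± 0.21 (adjusted p = 1.00) and passed in the fit with the intensity set as a block, at an adjusted p of 0.021. The fit with that block called 194 higher and 220 lower over all genes. In 5 of the 10 genes both Id2-GFP+ pre-CD8 arrays lay above both Id2-GFP+ CDP arrays, as they did in 8.94% of all genes. Anxa4 lay near the middle of each array's values, between 6.06 and 6.85, and differed by at most 0.36 in these 4 comparisons. Its highest value, 6.85, was in Id2-GFP+ pre-CD8 replicate 2 and its lowest, 6.06, in Id2-GFP- CDP replicate 2.

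**Figure D3:**
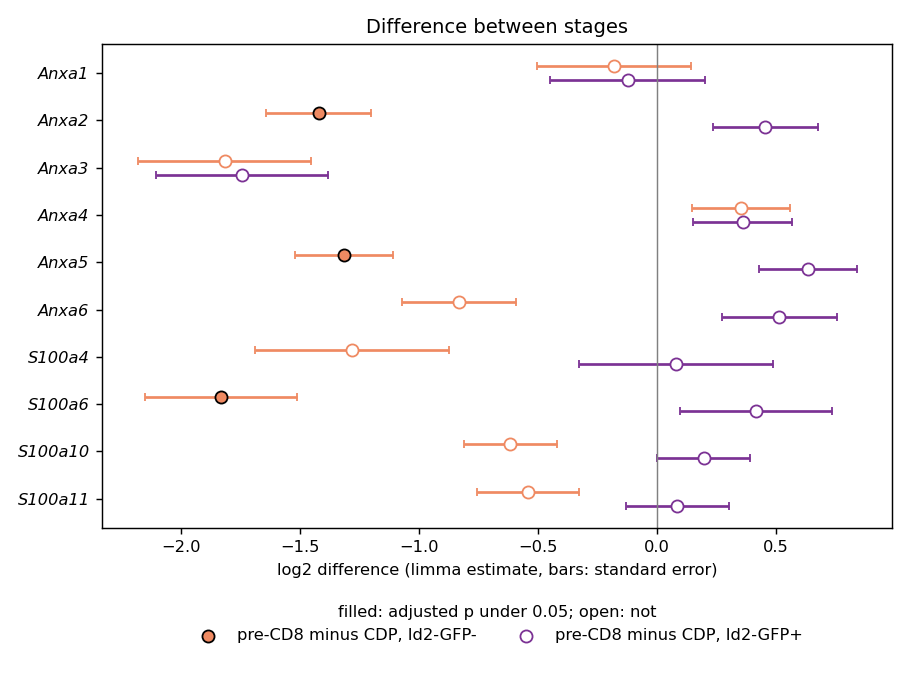
Log2 difference of pre-CD8 minus CDP (horizontal axis, limma estimate with its standard error) for the 10 genes, within Id2-GFP- and within Id2-GFP+ cells; filled points passed an adjusted p under 0.05. Anxa2, Anxa5 and S100a6 passed among Id2-GFP- cells, from -1.83 to -1.31, and Anxa3 lay at -1.82 and -1.74 in both classes without passing.

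Ordered by mean, 7 genes (Anxa2, Anxa5, Anxa6 and the 4 S100 genes) ran from Id2-GFP+ pre-CD8 at the top through Id2-GFP+ CDP and Id2-GFP- CDP to Id2-GFP- pre-CD8. In Anxa2, Anxa5, Anxa6 and S100a6 the arrays of neighbouring populations never overlapped. How many of all genes had this order, or such gaps, was not counted. In S100a4, S100a10 and S100a11 the Id2-GFP+ populations overlapped, and in S100a10 Id2-GFP+ CDP also overlapped Id2-GFP- CDP. Anxa1 formed 2 levels, 10.98 to 11.78 on the 4 Id2-GFP+ arrays against 8.29 to 8.88 on the 4 Id2-GFP- arrays, with overlap inside each. In 7 of the 10 genes all 4 Id2-GFP+ arrays lay above all 4 Id2-GFP- arrays, against 5.42% of all genes. S100a10, Anxa3 and Anxa4 were the exceptions.

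As a description over 8 arrays that share 4 populations and 2 intensity sets, the 7 genes with the common order correlated with each other at r of 0.868 to 0.989 over 21 pairs. Anxa1 correlated with them at 0.767 to 0.941, and Anxa3 correlated with Anxa1 and the 7 at 0.099 to 0.252. S100a6 had the widest range of population means. The genes most like it outside the set were Ifi30, a lysosomal thiol reductase of antigen processing (r = 0.999 over 8 arrays), H2ax (0.990), the transcription factor Klf4 (0.990), Ms4a4c (0.989) and Plxdc1 (0.989), of 1847 genes whose population means spanned at least 1. Anxa4 correlated with Anxa1 and the 7 at 0.007 to 0.380 and with Anxa3 at -0.537. Among genes of the set whose population means spanned at least 1, which leaves out Anxa4, Anxa3 ran least like S100a6, and nearest to Anxa3 were the granule protease gene Prtn3 (0.984), Frrs1 (0.978), Papss2 (0.971), the hexokinase gene Hk3 (0.965) and the clotting factor gene F13a1 (0.962).

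The S100 genes of the set share a chromosome with most of their family. In RefSeq map order on mouse chromosome 3, S100a4 and S100a6 have S100a5 between them and S100a2 and S100a7a on their outer sides. While S100a4 and S100a6 differed by 2.84 and 3.28 between the reporter classes of pre-CD8, S100a2 was at 0.14 ± 0.24, S100a5 at -0.06 ± 0.22 and S100a7a at -0.11 ± 0.16. S100a5 never exceeded log2 5.31 and S100a7a never exceeded 5.87, below the lowest median of any array (6.12), where RMA compresses differences. S100a2 was dim too, with population means of 5.81 to 6.03 and a highest value of 6.34. Further along, the calprotectin genes S100a8 and S100a9 were higher in Id2-GFP+ cells at both stages, by 2.92 and 2.48 in pre-CD8 and by 4.50 and 3.81 in CDP. S100a11 and S100a10 lie next to each other, with 56 other protein-coding genes between S100a9 and S100a11.

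**Figure D4:**
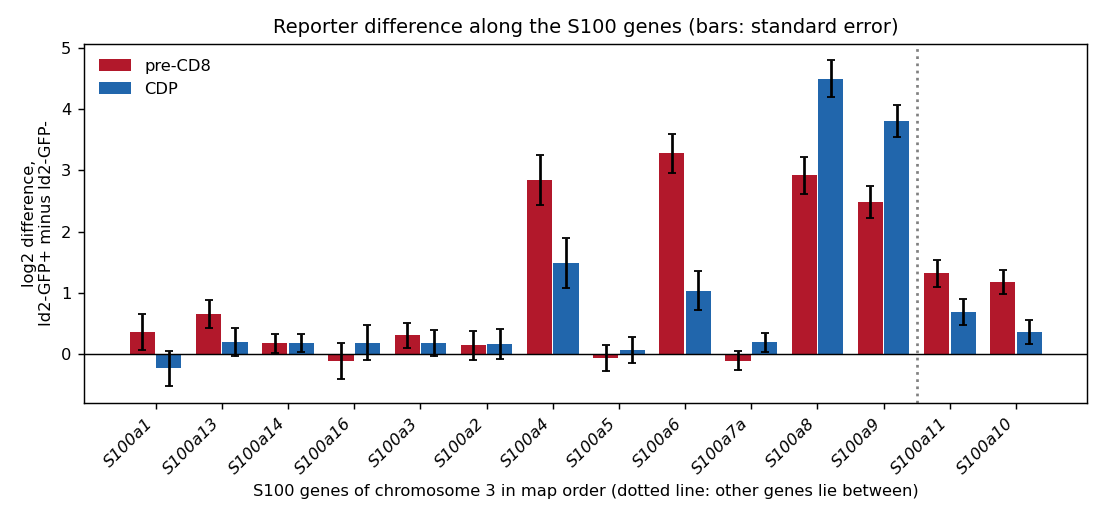
Log2 difference of Id2-GFP+ minus Id2-GFP- (vertical axis, bars with standard error) for 14 S100 genes of chromosome 3 in map order, in pre-CD8 and CDP. S100a4, S100a6, S100a8, S100a9, S100a11 and S100a10 passed in pre-CD8, from 1.17 to 3.28, while the other 8 lay between -0.12 and 0.65 without passing.

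The rest of both families was counted next. Of the 6 other annexins none passed in any of the 5 tests. In pre-CD8 they ranged from -1.21 for Anxa9 to 0.85 for Anxa7 (smallest adjusted p = 0.065), 2 of the 6 had an unadjusted p under 0.05 in limma, and Anxa8, Anxa10 and Anxa13 stayed below the lowest array median. Of 12 other genes named S100, which include S100pbp, the gene of a binding protein, none passed in any of the 5 limma tests, 1 had an unadjusted p under 0.05 in pre-CD8, and 7 stayed below that median. The median pre-CD8 difference was 0.15 for the other annexins and 0.004 for the other S100 genes.

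Proteins that bind annexins or S100 proteins were taken as a further list. In Id2-GFP+ pre-CD8 3 of 16 rose and none fell, with a list median of 0.09. Ahnak, the giant scaffold held by S100a10 and Anxa2, had log2 intensities of 8.74 and 9.48 against 6.86 and 7.0 in Id2-GFP- pre-CD8, a difference of 2.18 ± 0.32 with an adjusted p of 0.0060. Capn2, the large subunit of m-calpain, rose by 1.27 ± 0.29 (adjusted p = 0.042) and Myh9, the non-muscle myosin bound by S100a4, by 1.05 ± 0.23 (adjusted p = 0.034). None of the 16 passed in CDP by limma, and 1 had an unadjusted p under 0.05 there.

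Receptors and membrane repair genes gave few calls. Of 5 measured receptor genes 1 fell in Id2-GFP+ pre-CD8, Plgrkt, a plasminogen receptor, by 1.11 ± 0.22 (adjusted p = 0.022). Its values were 7.63 and 7.50 in Id2-GFP+ pre-CD8 against 8.54 and 8.80 in Id2-GFP- pre-CD8. The formyl peptide receptor genes Fpr1, Fpr2 and Fpr3 were not analysed here. Of 14 membrane repair genes 1 fell, the ferlin Myof, with 5.72 and 5.99 against 8.43 and 7.52, a difference of -2.12 ± 0.37 (adjusted p = 0.013). Of 14 phosphatidylserine receptor and bridge genes none passed by limma, 3 had an unadjusted p under 0.05, and the nearest were the receptor kinase gene Axl at 1.23 ± 0.30 (adjusted p = 0.052) and Pros1, which codes for protein S, at 0.95 ± 0.23 (adjusted p = 0.053). Of 8 glucocorticoid response genes 1 rose at each stage, the kinase gene Sgk1, by 2.59 ± 0.22 in pre-CD8 (adjusted p = 0.00076) and by 1.5 ± 0.22 in CDP (adjusted p = 0.030). The median pre-CD8 difference was 0.27 for the receptors, 0.05 for membrane repair, 0.12 for the phosphatidylserine genes and 0.38 for the glucocorticoid list.

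**Figure D5:**
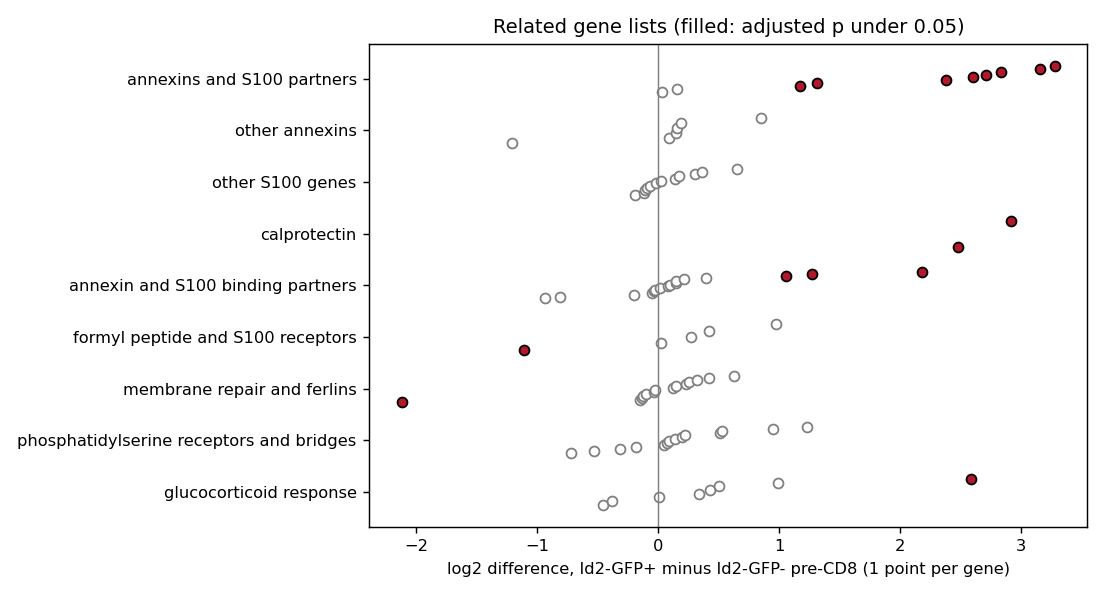
Log2 difference of Id2-GFP+ minus Id2-GFP- pre-CD8 (horizontal axis, 1 point per gene) for the annexins and S100 partners and 8 related lists down the page; filled points passed an adjusted p under 0.05. Of the annexin and S100 set 8 of 10 lie filled at 1.17 or above, and none of the other annexins or other S100 genes is filled.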

How the data were processed

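Values were read from the deposited series table, which holds intensity on a linear scale for 28853 probe sets on 8 arrays. These came from RMA run by the authors with Expression Console of Affymetrix (per the submitters' processing notes; versions are not given in the sources used here). RMA corrects background, normalizes arrays to each other and summarises probes, and compresses dim differences. The deposited intensity was converted to log2 with no further normalization. GEO's platform annotation gave 1 symbol to 21789 probe sets, several to 1621 and no entry to 5443; only those with 1 symbol were used, which left 19938 genes. Of the 21789, 21698 matched the RefSeq gene table by Entrez number and 0 symbols changed.

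limma 3.58.1 in R 4.3.3 fitted 4 population means to all 8 arrays with an intensity trend in the variance prior (4 residual, 4.19 prior and 8.19 total degrees of freedom). Tests were two-sided, adjusted by Benjamini-Hochberg over all genes, with a threshold of 0.05. The fit was also run on simulated data with independent noise on each array. Such data cannot show how the fit handles deviations shared by arrays of an intensity set. All 10 genes are named. Further genes of the related lists were those past the threshold in pre-CD8 (at most 4 a list, by p) or, with none, the 2 nearest. Cell type markers, and S100 genes named for their map position, fell outside this rule. The most alike genes were the 5 with the highest Pearson r. Members, lists, motifs and the intensity set were chosen with earlier results of these data known. Alternatives were each array left out, replicate number or intensity set as a block, quantile normalization, median centring, no trend, a filter on dim genes, every probe set on its own, and second probe sets. Array medians are over all probe sets. Counts of genes with an unadjusted p under 0.05 have no share of all genes beside them, as that share was not counted. Arrays carry no depth, and their number limits the precision. Promoters came from RefSeq (GRCm38.p6). Python 3.11.15 made tables and figures.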

Additional observations from a re-analysis of the deposited data

How the results depend on the processing

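The 8 of 10 calls in Id2-GFP+ over Id2-GFP- pre-CD8 stayed between 6 and 8 without each array in turn and at 8 under the 7 other alternatives run on all 10 genes. The 1 call in CDP was 0 to 1 without an array, 8 with the array intensity set as a block, and 2 under quantile normalization, median centring, no intensity trend and the filter on dim genes. The 3 calls between stages among Id2-GFP- cells were 0 to 4 without an array, 8 with the intensity set as a block and 0 with the replicate number as a block. Quantile normalization also gave 3, with Anxa3 in place of S100a6. Among Id2-GFP+ cells 0 calls became 2 with the intensity set as a block and 1 under quantile normalization. The interaction went to 7 calls with the intensity set as a block, 2 under quantile normalization or median centring, and 1 with no trend or with the filter. Whether replicate numbers paired the arrays could not be decided. Deviations of same-numbered arrays correlated over 0.1 in 2 of 6 pairs of populations, from -0.685 to 0.713. Those 2 were the pairs in which the same number was the brighter array, so the sign followed the intensity set. With the replicate block the counts were 8, 1, 0, 0 and 0 in the order above, so it ended the 3 calls between stages among Id2-GFP- cells and changed no other. Over all genes, in either direction of the same comparisons, calls numbered 711 higher and 538 lower, 119 and 0, 206 and 118, 0 and 0, and 7 and 22. They became 2197 and 2625, 735 and 831, 1161 and 1325, 194 and 220, and 815 and 677 with the intensity set as a block. Quantile normalization gave 1305 and 1262, 198 and 9, 416 and 442, 16 and 8, and 101 and 101, and the replicate block gave 110 and 47 between stages among Id2-GFP- cells and 1 and 5 in the interaction.

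No difference of the 10 genes past the threshold changed sign under any alternative. Leaving out arrays turned the sign of some small differences that did not pass. Anxa1 ranged over -0.47 to 0.11 and -0.49 to 0.24 between stages among Id2-GFP- and Id2-GFP+ cells and over -0.30 to 0.42 in the interaction. Anxa3 ranged over -0.31 to 0.37 and -0.40 to 0.32 between reporter classes of pre-CD8 and CDP and over -0.29 to 0.43 in the interaction. Anxa4 ranged over -0.072 to 0.38 between reporter classes of pre-CD8 and over -0.22 to 0.24 in the interaction. Between stages among Id2-GFP+ cells S100a4 ranged over -0.0645 to 0.22, S100a10 over -0.024 to 0.42 and S100a11 over -0.16 to 0.33. Quantile normalization gave -0.0205 for the Anxa1 interaction and 0.0009 for the Anxa3 difference in CDP. The second probe sets of Anxa6 and S100a11 were added after seeing the data. The causes were not tested. With 2 arrays a population and RMA's compression, differences of dim genes such as Anxa4 and S100a5 are limited by signal over background.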
